A study of Mus musculus with 16 samples.

Results

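Histone genes were followed across early T cell development in the mouse thymus. They were taken as every probe set of a Mouse Gene 1.0 ST array whose gene symbols all belonged to the H1, H2A, H2B, H3 or H4 families or to their H2az, H3f and H1f variants, which gave 50 of the 25108 probe sets. Membership went by name alone and used no measured value. The arrays came from mice 4 weeks old and formed 8 groups of 2: DN4 and DN2-3 thymocytes of BDC/NOD, NOD, BDC/B6g7 and B6g7 mice. BDC mice carry the BDC2.5 TCR transgene, a receptor from a T cell clone that recognizes pancreatic islet antigen; mice without it (non-Tg, here NOD and B6g7) make their own varied receptors. NOD mice develop autoimmune diabetes, and B6g7 mice are C57BL/6 mice with the MHC haplotype of NOD. All non-Tg arrays were from females, whereas replicate 1 of each BDC group was male and replicate 2 female. The study set transgenic against polyclonal thymocytes on both backgrounds at each stage. Neither the promoter that drives the transgene nor whether a sample pooled several mice was given in the sources used here.

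Cells were sorted as double-negative (DN) thymocytes, which lack CD4 and CD8, after complement killing of CD4 and CD8 cells: DN2-3 carried CD25 and DN4 did not. Il2ra, which encodes part of CD25, matched this sort, with a median of 9.83 log2 on the 8 DN4 arrays (9.09 to 10.56), against 12.73 on the 8 DN2-3 arrays (12.32 to 13.30). The CD8 genes Cd8b1 and Cd8a read higher in DN4 than in DN2-3 cells of NOD and B6g7 mice, and their values are given beside the histone results. The T lineage genes Cd3e and Thy1 read at least 12.22 log2 on all 16 arrays. Of the marker lists for other cells, 4 of 7 B cell genes, 4 to 6 of 12 myeloid genes, 2 to 3 of 8 NK cell genes and 7 of 8 stroma genes were above background on an array. In the erythroid list 3 to 4 of 4 genes were above background. Not above it on any array were Cd79a, Ms4a1 and Ebf1 (B cell), Csf1r, Itgam, Cd14, Adgre1 and S100a8 (myeloid), Ncr1, Klrb1c, Klrd1, Klrk1 and Klra8 (NK cell) and Krt5 (stroma). Among those above it on all 16, Nkg7 of the NK cell list, Cd79b of the B cell list, Mpo of the myeloid list and Pdgfrb and Pecam1 of the stroma list differed between groups, and their values are given beside the histone results. Background was set at 5.98 log2, the highest signal of 3 Y-linked probe sets on the female arrays. Median intensities ran from 123.1 to 138.2. The 2 NOD DN2-3 arrays differed by a median of 0.246 on the log2 scale, against 0.0862 to 0.138 in the other 7 pairs. The ratio of the upper to the lower quartile of intensity was 6.82 on NOD DN2-3 replicate 1 and 7.60 and 7.46 on the B6g7 DN4 arrays, against 8.30 to 10.3 on the other 13, so these 3 arrays stood apart. Values below are log2 of the deposited intensity, so a difference of 1 is 2-fold. Differences are given with standard errors from limma, fitted over all 16 arrays and 25108 probe sets, and a probe set was called where the Benjamini-Hochberg adjusted p was under 0.05. The labels do not say that the arrays of a group came from separate animals, so the p-values cover the spread between these samples alone, which may be technical, and 2 arrays a group limit the precision. Groups of 2 arrays often do not overlap. Over the 12 comparisons, 15.4% to 45.8% of all probe sets had the first-named group wholly below the other. In 22.8% to 42.3% it lay wholly above.

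Histones are the proteins that DNA is wound on: H2A, H2B, H3 and H4 form the core of the nucleosome, and H1 linker histones bind the DNA between cores. Replication-dependent histone genes lie in clusters, are expressed mainly in S phase when new DNA must be packaged, and give mRNAs that end in a stem-loop instead of a poly(A) tail. Replacement variants such as H2A.Z, H3.3 and H1.10 are made outside S phase as well. In the thymus, DN cells that have rearranged a TCR beta chain pass beta-selection and divide rapidly on the way to the DN4 stage.

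The 50 probe sets held 4 for H1, 3 for H2A, 8 for H2B, 1 for H2bc6 and H1f4 together, 13 for H3 and 11 for H4. A further 5 were for replacement variants (H2az1 with 2 probe sets, H2az2, H3f3a and H1f10) and 5 for histones known from germ cells (H2ac1, H2bc1, H1f6, H1f7 and H1f8). Single symbols were given for 34 of them. Of the others, 10 H3 probe sets shared the same 12 H3c symbols and 4 H4 probe sets shared the same 11 H4c symbols, so they do not count as independent genes. The signals of near-identical copies cannot be told apart there. Signals were above background on all arrays for 42 probe sets, on some arrays for 5 (H2ac4, H1f6, H3c15, H2bc21 and the probe set of H4c17 and H4c11) and on none for H2ac8, H3c7 and H1f8. All 50 were tested, with no filter on low values. Of the members with 1 symbol, 23 lay on chromosome 13, which holds the largest histone cluster of the mouse, and 6 on chromosome 3.

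Promoters are shown for the members whose values are described most closely below: the linker genes H1f1 and H1f5, which moved with the class, H1f2, which moved against it, H2bc14, H4c3 and the replacement variant H2az1. Each is the 150 bases before the RefSeq start in GRCm38.p6, 5′ to 3′ on the gene's strand. They lie at chr13:23763518-23763667 (plus strand, H1f1), chr13:21780626-21780775 (minus, H1f5), chr13:23738657-23738806 (plus, H1f2), chr13:21721894-21722043 (plus, H2bc14), chr13:23698459-23698608 (minus, H4c3) and chr3:137864337-137864486 (plus, H2az1). Capitals mark the TATA box (TATAAA) and the CCAAT box. They also mark the octamer (ATTTGCAT). The last motif in capitals is the H1 box (AAACACA), and all were searched on both strands.
H1f1: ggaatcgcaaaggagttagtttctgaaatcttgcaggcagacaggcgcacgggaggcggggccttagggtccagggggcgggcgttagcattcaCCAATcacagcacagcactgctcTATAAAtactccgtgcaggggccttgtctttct
H1f5: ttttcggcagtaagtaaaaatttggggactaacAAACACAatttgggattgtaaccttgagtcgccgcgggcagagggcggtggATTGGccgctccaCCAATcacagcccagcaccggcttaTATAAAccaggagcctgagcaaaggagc
H1f2: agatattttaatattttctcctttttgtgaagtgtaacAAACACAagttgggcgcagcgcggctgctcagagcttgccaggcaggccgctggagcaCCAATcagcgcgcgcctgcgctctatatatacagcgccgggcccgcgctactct
H2bc14: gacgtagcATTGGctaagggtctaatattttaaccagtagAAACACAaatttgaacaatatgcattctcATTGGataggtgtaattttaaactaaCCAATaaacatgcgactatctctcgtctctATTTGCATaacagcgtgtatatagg
H4c3: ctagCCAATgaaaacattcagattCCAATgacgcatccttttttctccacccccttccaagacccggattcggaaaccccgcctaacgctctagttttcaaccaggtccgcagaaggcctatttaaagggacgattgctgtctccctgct
H2az1: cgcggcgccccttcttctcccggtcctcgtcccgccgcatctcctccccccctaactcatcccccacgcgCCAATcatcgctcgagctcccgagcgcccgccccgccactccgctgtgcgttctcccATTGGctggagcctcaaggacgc

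Such promoters were found for 29 members with 1 symbol, 20 of them replication-dependent. No motif match overlapped another. CCAAT was in 16 of the 20 replication-dependent promoters and in 25.3% of all 27025 mouse promoters of this length, and TATAAA was in 10 of the 20 and in 8.08% of all. The octamer was in 4 of 6 H2B and 2 of 3 H2A promoters and in no H1, H3 or H4 promoter matched, against 1.02% of all. The H1 box was in 3 of 4 H1 promoters, H1f1 being the one without it, and in 3.5% of all. It was also in 1 of 3 H2A, 1 of 6 H2B and 2 of 5 germ cell type promoters. The E2F letters TTTCGCGC were in none of the 20 and in 0.163% of all. The promoter of H1f2 held the CCAAT and H1 boxes, as that of H1f5 did, but not TATAAA. A match is only a match of letters.

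By stage, the most histone calls were in BDC/B6g7 mice, where most histone probe sets read lower in DN4 than in DN2-3 cells. Of 50 members, 31 fell and 1 rose, and the median difference was -0.53, against a median of 0.02 over all probe sets. Among all probe sets, 15.5% were called lower and 10.0% higher in this comparison. The fall covered 2 of 4 H1, 2 of 3 H2A, 4 of 8 H2B, 11 of 13 H3, 7 of 11 H4, 3 of 5 replacement variant and 2 of 5 germ cell type probe sets. The plot of stage differences by class shows this spread in all 4 kinds of mice.

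**Figure D1:**
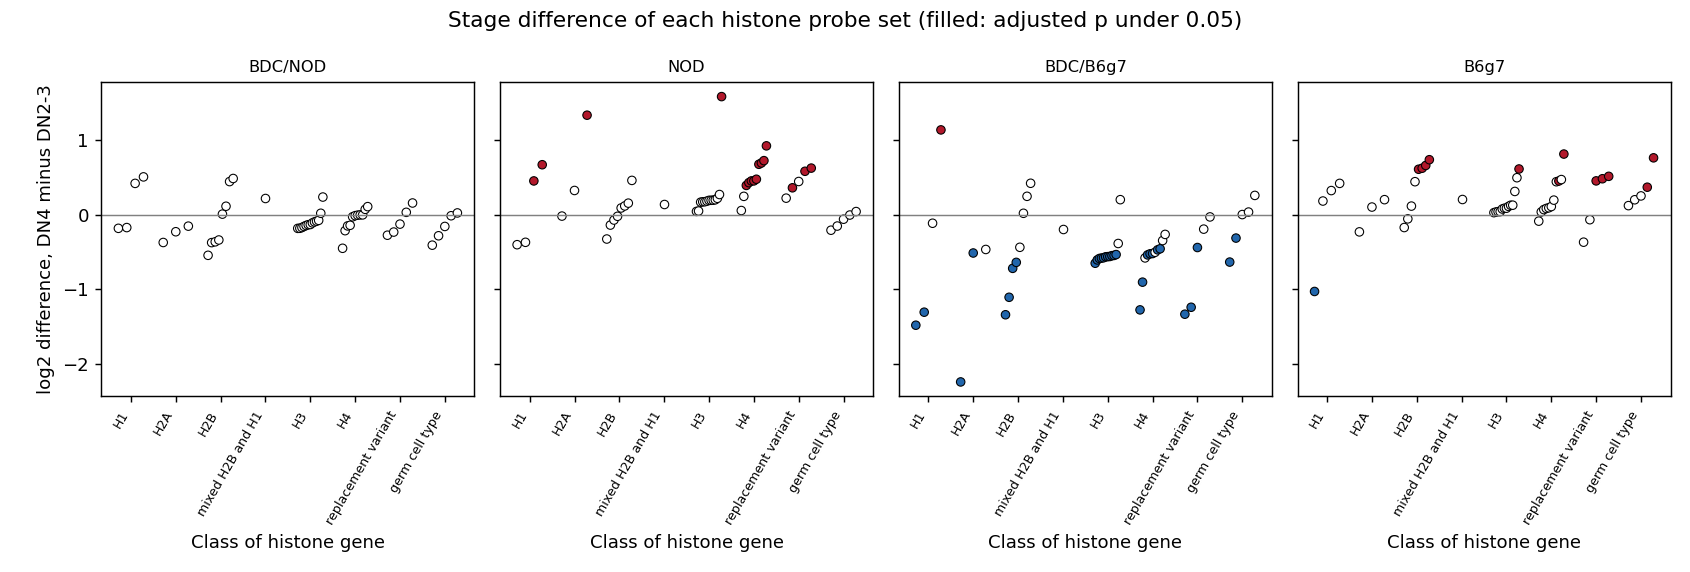
Log2 difference of DN4 minus DN2-3 for each of the 50 histone probe sets, by class, in 4 panels for the 4 kinds of mice; filled points have an adjusted p under 0.05. Most points lie below 0 in BDC/B6g7 (31 fell), with H1f2 on the other side, while 12 rose in B6g7, 16 rose in NOD and none was called in BDC/NOD.

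Linker histones moved in both directions. H1f1, a replication-dependent linker histone, read 9.96 and 10.07 log2 in BDC/B6g7 DN4 cells, against 11.45 and 11.19 in BDC/B6g7 DN2-3 cells. The groups did not overlap, and the difference was -1.31 ± 0.13 (adjusted p = 2.52e-06). H1f5, the linker histone H1.5, read 9.96 and 10.09 in BDC/B6g7 DN4 cells, against 11.58 and 11.43 in DN2-3 cells, a difference of -1.48 ± 0.16 (adjusted p = 6.05e-06). Both BDC/B6g7 DN4 arrays were the lowest of all 16 for both genes. H1f2, the linker histone H1.2, whose mRNA in human cells is also known in a polyadenylated form, went the other way. It read 9.98 and 9.95 in BDC/B6g7 DN4 cells, against 8.78 and 8.87 in DN2-3 cells, and rose by 1.13 ± 0.15 (adjusted p = 2.96e-05). H1f2 was the one member called higher here.

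Core histones moved less than H1f1 and H1f5 in most probe sets. H2ac15 (H2A) read 12.24 and 12.25 log2 in BDC/B6g7 DN4 cells, against 12.84 and 12.68 in DN2-3 cells, and fell by 0.51 ± 0.12 (adjusted p = 0.00441). H2ac4 (H2A) read 5.76 and 5.83 in BDC/B6g7 DN4 cells, not above background, against 8.56 and 7.51 in DN2-3 cells, which makes it at least 4.15-fold lower (adjusted p = 0.000428). Of the H2B genes, H2bc14 read 10.89 and 10.96 in DN4 cells, against 12.22 and 11.85 in DN2-3 cells, and fell by 1.11 ± 0.18 (adjusted p = 0.000225). None of these pairs of groups overlapped, and 29.6% of all probe sets likewise lay wholly lower in BDC/B6g7 DN4 than in DN2-3 cells. H2bc3 fell by 1.34 ± 0.26 (adjusted p = 0.000996), and H2bc9, at 10.29 and 10.36 in DN4 cells and 11.12 and 10.81 in DN2-3 cells, fell by 0.64 ± 0.17 (adjusted p = 0.0115).

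All 10 shared H3 probe sets fell, with differences of -0.61 to -0.53, and all 4 shared H4 probe sets fell, with differences of -0.52 to -0.46. The brightest, H3c cluster probe set 10, read 13.26 and 13.08 log2 in BDC/B6g7 DN4 cells, against 13.82 and 13.68 in DN2-3 cells, without overlap. These H3 signals are near the top of the scale. Larger falls were in H4c6 (-1.27 ± 0.20, adjusted p = 0.000213) and H4c3 (-0.90 ± 0.19, adjusted p = 0.00186), both single-gene H4 probe sets. H4c3 read 9.18 and 9.15 in DN4 cells, against 10.27 and 9.86 in DN2-3 cells.

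Among replacement variants, H2az1, which encodes the H2A.Z.1 histone found at promoters and enhancers, fell as far as the linker genes. Its brighter probe set read 10.75 and 10.73 log2 in BDC/B6g7 DN4 cells, against 11.94 and 12.02 in DN2-3 cells, a difference of -1.24 ± 0.11 (adjusted p = 6.26e-07). Its other probe set differed by -1.33 ± 0.11 (adjusted p = 6.22e-07). H2az2, for the related H2A.Z.2, differed by -0.44 ± 0.10 (adjusted p = 0.0029). In bulk samples such as these, fewer cells of a type and less RNA per cell cannot be told apart.

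**Figure D2:**
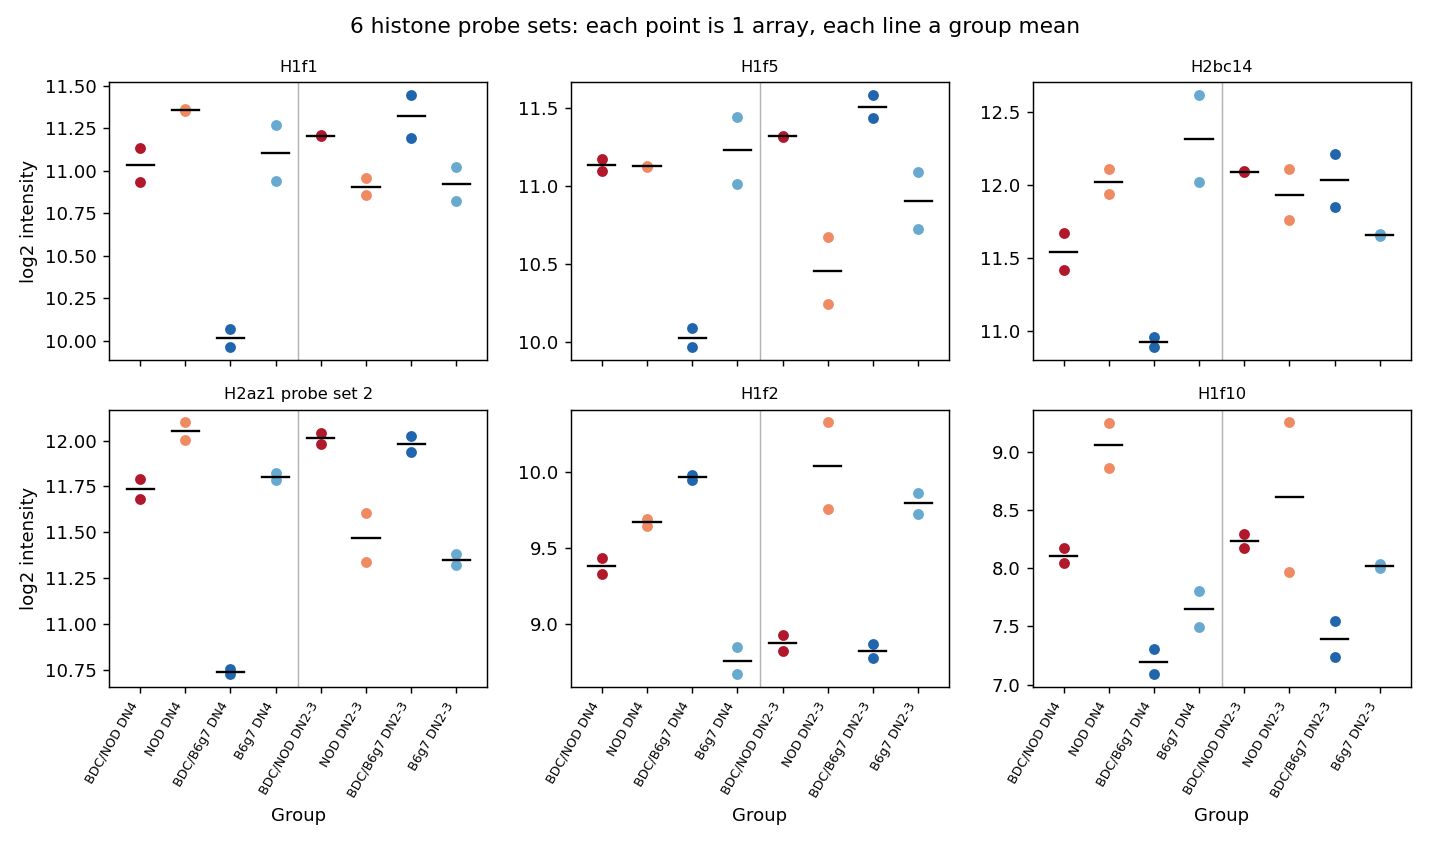
Log2 intensity of 6 histone probe sets on each of the 16 arrays, by group; points are arrays and lines are group means. BDC/B6g7 DN4 is the lowest group for H1f1, H1f5, H2bc14 and H2az1 and the highest of the 4 BDC groups for H1f2, at 9.98 and 9.95.

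Genes of the S phase and division programmes fell with the histones in BDC/B6g7. Of 37 DNA replication genes all 37 were lower in DN4 than in DN2-3 cells (median -1.49), as were all 19 mitosis genes (median -1.22), 11 of 18 factors of histone mRNA synthesis and processing and 16 of 20 histone chaperones. Slbp, which encodes the protein that binds the stem-loop of histone mRNAs, differed by -1.23 ± 0.16 (adjusted p = 2.93e-05), and Casp8ap2, a factor of histone gene transcription, by -0.70 ± 0.09 (adjusted p = 2.96e-05). Nasp, a chaperone of H1 and H3-H4, differed by -1.61 ± 0.13 (adjusted p = 3.7e-07), and H2ax, an H2A variant of DNA repair that the membership rule does not take, by -1.25 ± 0.18 (adjusted p = 8.88e-05). Genes of gamma-delta T cells moved the other way: 7 of 11 were higher and 2 lower. Their summed intensity was 29119 to 31396 in BDC/B6g7 DN4 cells, against 10205 to 10893 in BDC/B6g7 DN2-3 cells; Prf1 (0.65 ± 0.10) and Pecam1 (0.78 ± 0.13) were also higher and Mpo lower (-1.20 ± 0.18); the part of all these genes in the histone differences was not tested. When the 4 male arrays were left out and each BDC group kept 1 array, 5 histone probe sets were called instead of 32.

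In polyclonal mice the histone probe sets called by stage were mostly higher in DN4 cells. In NOD, 16 of 50 rose and none fell, beside 11.3% of all probe sets called higher and 6.75% lower; the member median was 0.19, against -0.04 over all. H4 probe sets made up 9 of the 16, among them the 4 that share symbols, and the median over all 11 H4 probe sets was 0.45. In B6g7, 12 rose and 1 fell, beside 11.2% of all probe sets in each direction; the member median was 0.15, against 0.10 over all. Those 12 included 4 of 8 H2B probe sets.

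H4c3 was among the most changed in both strains. It read 10.26 and 10.05 log2 in NOD DN4 cells, against 9.36 and 9.50 in NOD DN2-3 cells (0.72 ± 0.19, adjusted p = 0.0148). In B6g7 it read 10.88 and 10.24 in DN4 cells, against 9.85 and 9.64 in DN2-3 cells (0.81 ± 0.19, adjusted p = 0.00629). DN4 was above DN2-3 on every array in both strains. The brighter H2az1 probe set read 12.00 and 12.10 in NOD DN4 cells, against 11.34 and 11.60 in NOD DN2-3 cells (0.58 ± 0.11, adjusted p = 0.00139). In B6g7 it read 11.82 and 11.78 in DN4 cells, against 11.38 and 11.32 in DN2-3 cells (0.45 ± 0.11, adjusted p = 0.00647). H2az1 thus had DN4 above DN2-3 without overlap in the polyclonal mice and below it in BDC/B6g7.

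H3c15, an H3 gene, rose in both strains, by 1.58 ± 0.12 in NOD (adjusted p = 5.66e-07), with 8.33 and 8.35 log2 in DN4 cells and 6.79 and 6.74 in DN2-3 cells, and by 0.61 ± 0.12 in B6g7 (adjusted p = 0.00188). The probe set of H4c17 and H4c11 was at least 1.74-fold higher in NOD DN4 cells (adjusted p = 0.00494), since NOD DN2-3 cells gave only a bound for it. H2ac4 was called higher in NOD DN4 (adjusted p = 0.0271) although its mean was at most background in both groups, so no fold is given. In B6g7, H2bc22 rose by 0.73 ± 0.17 (adjusted p = 0.00625), H2bc14 by 0.66 ± 0.18 (adjusted p = 0.0156) and H2bc1, a germ cell type H2B, by 0.76 ± 0.22 (adjusted p = 0.0201).

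H1f2 was again apart. In B6g7 it read 8.85 and 8.67 log2 in DN4 cells, against 9.86 and 9.72 in DN2-3 cells, and fell by 1.03 ± 0.15 (adjusted p = 0.000163), the one member called lower there. In NOD it read 9.69 and 9.65 in DN4 cells, against 9.75 and 10.32 in DN2-3 cells, a difference that was not called. Markers of other cells moved with the stage: Nkg7 differed by -3.57 ± 0.13 in NOD and -3.07 ± 0.13 in B6g7, and 3 of 8 stroma genes were lower in each strain, Pdgfrb by -0.70 ± 0.16 and -1.92 ± 0.16. The NK cell list summed to 453 to 463 in NOD DN4 cells, against 2186 to 2272 in NOD DN2-3 cells, and to 585 to 615 in B6g7 DN4 cells, against 2575 to 2952 in B6g7 DN2-3 cells. Mpo and Lyz2 of the myeloid list and Cd79b were also called lower in both strains, and the part of these genes in the histone differences was not tested. The CD8 genes Cd8b1 and Cd8a were higher in DN4 cells, by 2.69 ± 0.22 and 2.16 ± 0.17 in NOD and by 4.13 ± 0.22 and 2.99 ± 0.17 in B6g7. Klf1 of the erythroid list was 0.41 ± 0.14 higher in DN4 cells of B6g7. The part of Cd8b1, Cd8a and Klf1 was not tested either. S phase genes rose at DN4 in both strains, 36 of 37 in NOD and 22 of 37 in B6g7, and mitosis genes in 19 of 19 and 16 of 19. These counts of histone calls changed when 1 array was left out. Its group then held 1 array, which lowers the precision whichever array is left out. The 16 in NOD became 6 without NOD DN2-3 replicate 1, and 6 with 1 NOD DN4 array left out, whichever it was; the 13 in B6g7 became 5 without B6g7 DN4 replicate 1, 8 without B6g7 DN2-3 replicate 1 and 6 without its replicate 2.

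In BDC/NOD no histone probe set was called by stage with limma. An unadjusted p under 0.05 was found for 9 of the 50 members, beside 3849 of all 25108 probe sets. Among all probe sets 4.25% were called (3.04% higher and 1.21% lower), and the member median was -0.13. H1f1 read 10.93 and 11.13 log2 in BDC/NOD DN4 cells, against 11.21 and 11.20 in DN2-3 cells (-0.17 ± 0.13, adjusted p = 0.601). H1f5 differed by -0.18 ± 0.16 (adjusted p = 0.675) and the brighter H2az1 probe set by -0.28 ± 0.11 (adjusted p = 0.204). H1f2 read 9.43 and 9.33 in DN4 cells, against 8.93 and 8.83 in DN2-3 cells, without overlap, but was not called (0.50 ± 0.15, adjusted p = 0.0701). Of the S phase genes 2 of 37 were lower, and of the mitosis genes none was called (median -0.18). Other fits of the same comparison made histone calls: 9 with array weights and 6 with only these arrays fitted. The share of all probe sets called in those fits was not recorded, so these counts cannot be set against it.

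**Figure D3:**
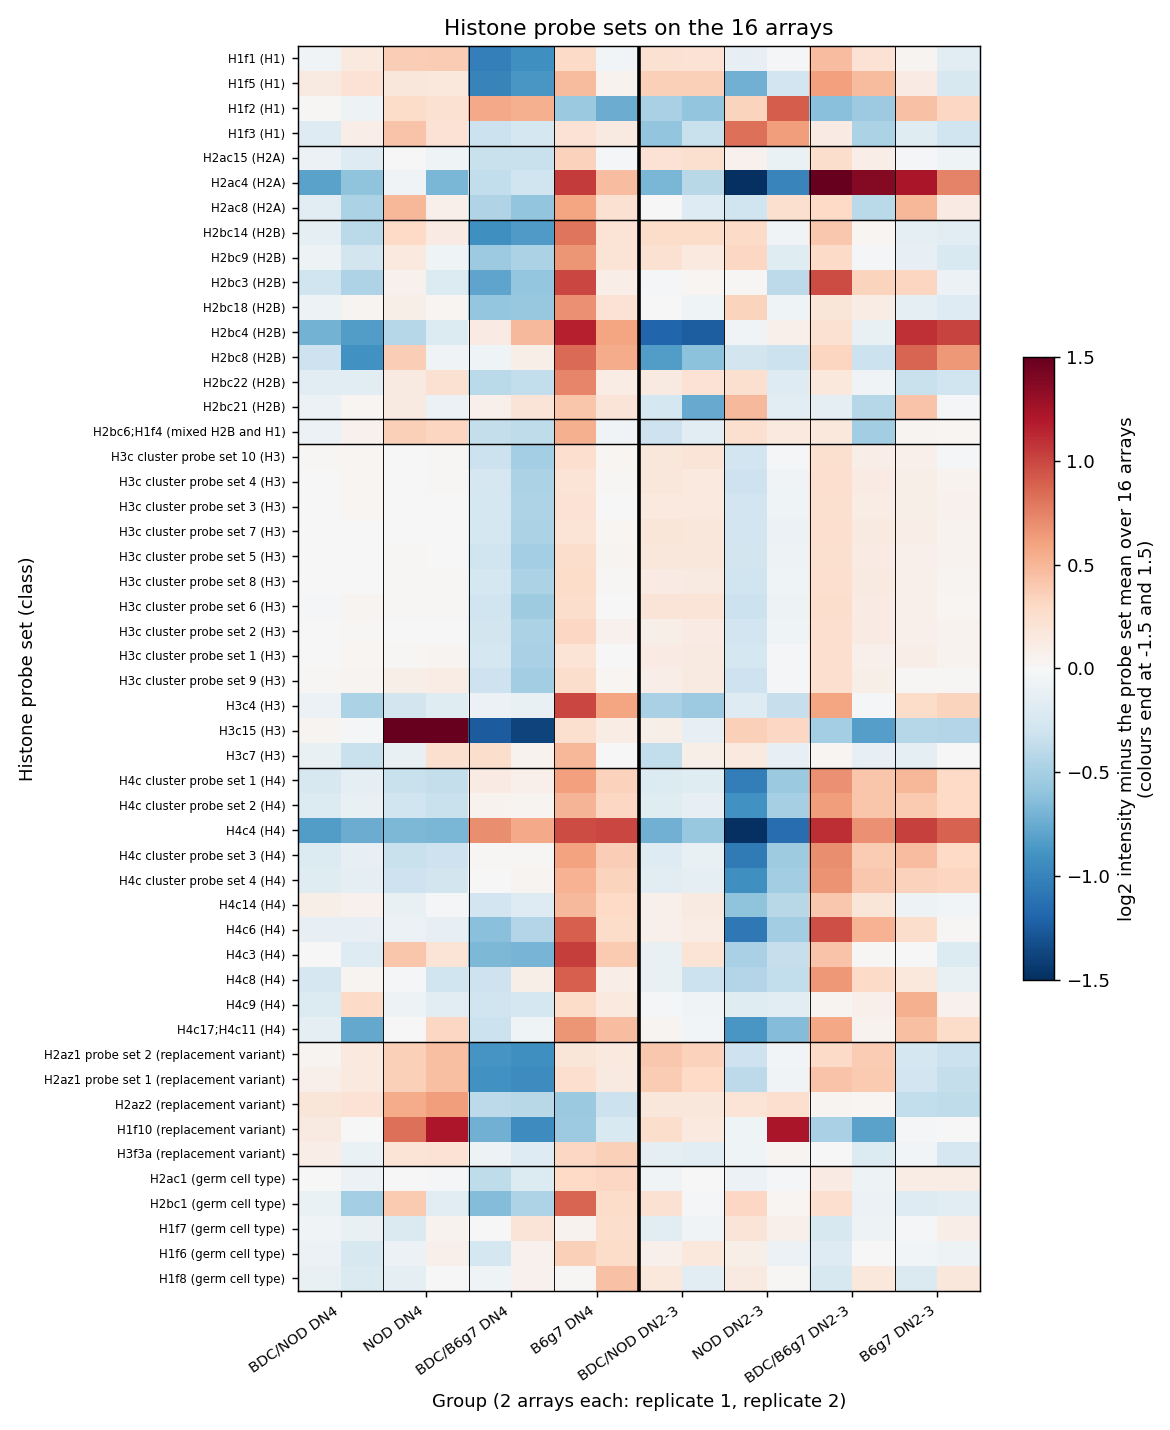
Log2 intensity of the 50 histone probe sets on the 16 arrays, each as its difference from the probe set's mean over all arrays, with colours ending at 1.5 in both directions. The BDC/B6g7 DN4 columns are low for most replication-dependent probe sets, and the H1f2 row is high there, at 9.98 and 9.95.

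Set against polyclonal cells of the same stage, BDC/B6g7 DN4 cells had lower signals for nearly the whole family. Of 50 members, 41 fell and 1 rose, and the median was -0.56, against -0.12 over all probe sets, of which 19.2% were called lower and 14.5% higher. Calls for lower signal covered 3 of 4 H1, all 3 H2A, 7 of 8 H2B, the 1 probe set of H2bc6 and H1f4, 12 of 13 H3, 9 of 11 H4, 3 of 5 replacement variant and 3 of 5 germ cell type probe sets. H1f2 alone rose.

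H2bc14 read 10.89 and 10.96 log2 in BDC/B6g7 DN4 cells, against 12.62 and 12.02 in B6g7 DN4 cells (-1.39 ± 0.18, adjusted p = 1.88e-05). H4c3 read 9.18 and 9.15 in BDC/B6g7 DN4 cells, against 10.88 and 10.24 in B6g7 DN4 cells (-1.39 ± 0.19, adjusted p = 3.07e-05). H2bc3 differed by -1.24 ± 0.26 (adjusted p = 0.00141), H1f5 by -1.20 ± 0.16 (adjusted p = 2.95e-05) and H1f1 by -1.09 ± 0.13 (adjusted p = 8.54e-06). Arrays of the 2 groups did not overlap for H2bc14 or H4c3, although B6g7 DN4 replicate 1 read above its replicate for both. Of all probe sets, 45.8% likewise lay wholly lower in BDC/B6g7 DN4 cells. H3c15 was at most background in BDC/B6g7 DN4 cells and at least 1.54-fold lower there (adjusted p = 1.46e-07). The 10 shared H3 probe sets all fell (-0.56 to -0.47), and 3 of the 4 shared H4 probe sets were called lower.

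H1f2 read 9.98 and 9.95 log2 in BDC/B6g7 DN4 cells, against 8.85 and 8.67 in B6g7 DN4 cells, and rose by 1.20 ± 0.15 (adjusted p = 1.12e-05). H2az2 did not follow H2az1: it read 10.46 and 10.44 in BDC/B6g7 DN4 cells, against 10.30 and 10.53 in B6g7 DN4 cells, and these overlapped (0.03 ± 0.10, adjusted p = 0.809). S phase genes were lower in 35 of 37 and mitosis genes in 19 of 19. Slbp differed by -1.61 ± 0.16 (adjusted p = 1.22e-06), Nasp by -1.39 ± 0.13 (adjusted p = 7.35e-07) and Ccne2, the cyclin E2 of the start of S phase, by -2.77 ± 0.16 (adjusted p = 7.78e-09). Gamma-delta T cell genes were higher in 8 of 11, with a summed intensity of 29119 to 31396 in BDC/B6g7 DN4 cells and 4066 to 4536 in B6g7 DN4 cells; their part was not tested. The NK cell list rose in 2 of 8 genes, and its summed intensity was 3688 to 3859 in BDC/B6g7 DN4 cells and 585 to 615 in B6g7 DN4 cells, with its 5 defining genes at background. Nkg7, a cytotoxic granule gene, differed by 3.54 ± 0.13 (adjusted p = 4.23e-11) and Prf1, perforin, by 0.53 ± 0.10 (adjusted p = 0.000685). Of 8 stroma genes, 7 above background, Pdgfrb (2.06 ± 0.16) and Pecam1 (1.55 ± 0.13) were called higher, and their summed intensity was 3293 to 3315 in BDC/B6g7 DN4 cells and 1516 to 1604 in B6g7 DN4 cells; the part of these genes was not tested either. Without B6g7 DN4 replicate 1, 26 members were called instead of 42.

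In NOD the same comparison at DN4 called 4 of 50 members, all lower, beside 5.85% of all probe sets called lower and 4.48% higher (10.3% either way). The members' share was thus near that of all probe sets. H3c15 read 6.47 and 6.40 log2 in BDC/NOD DN4 cells, against 8.33 and 8.35 in NOD DN4 cells, and fell by 1.91 ± 0.12 (adjusted p = 5.29e-08). The groups lay far apart relative to their spread. H1f10, for the linker variant H1.10, fell by 0.95 ± 0.28 (adjusted p = 0.0433), H2bc8 by 0.77 ± 0.22 (adjusted p = 0.0348) and H2az2 by 0.39 ± 0.10 (adjusted p = 0.0178). The member median was -0.10. S phase genes were lower in 19 of 37 and mitosis genes in 9 of 19, and gamma-delta T cell genes were higher in 7 of 11. In the NK cell list 2 of 8 genes were higher, Nkg7 by 2.85 ± 0.13 and Prf1 by 0.38 ± 0.10, and the list summed to 1479 to 1514 in BDC/NOD DN4 cells, against 453 to 463 in NOD DN4 cells. In the stroma list 2 of 8 were higher, Pecam1 by 1.10 ± 0.13 and Pdgfrb by 0.65 ± 0.16, and 6 of 13 thymocyte stage genes were lower; their part was not tested. The 4 calls became 7 with either NOD DN2-3 array left out alone, 1 without BDC/NOD DN4 replicate 2, 1 without NOD DN4 replicate 1 and 2 without NOD DN4 replicate 2.

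**Figure D4:**
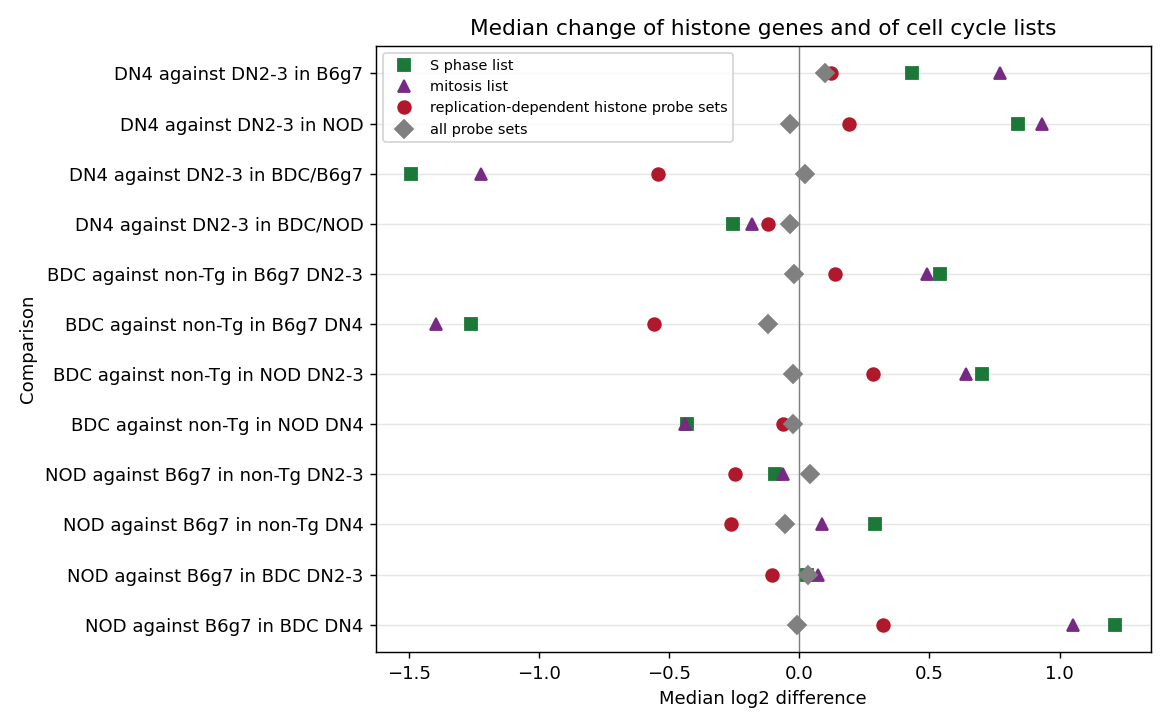
Median log2 difference in each of 12 comparisons for the S phase list (37 genes), the mitosis list (19 genes), the 40 replication-dependent histone probe sets and all probe sets. The histone median is -0.54 by stage in BDC/B6g7 and -0.56 for BDC against non-Tg in B6g7 DN4, where the S phase medians are -1.49 and -1.26.

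At DN2-3 the transgene comparison called 18 histone probe sets in NOD and 8 in B6g7. In NOD, 14 members rose and 4 fell, beside 9.40% of all probe sets called higher and 7.45% lower; the member median was 0.22. H4 probe sets were 8 of the 14, among them the 4 that share symbols. In B6g7, 5 rose and 3 fell, beside 7.47% higher and 5.85% lower of all, so the members' share was near that of all probe sets; the member median was 0.13.

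H1f5 was higher with the transgene in both strains. It read 11.32 and 11.31 log2 in BDC/NOD DN2-3 cells, against 10.24 and 10.67 in NOD DN2-3 cells (0.86 ± 0.16, adjusted p = 0.00216). In B6g7 it read 11.58 and 11.43 in BDC/B6g7 DN2-3 cells, against 11.09 and 10.72 in B6g7 DN2-3 cells (0.60 ± 0.16, adjusted p = 0.0217). BDC arrays lay above non-Tg arrays in both strains. The brighter H2az1 probe set was 0.63 ± 0.11 higher in BDC/B6g7 than in B6g7 DN2-3 cells (adjusted p = 0.000998), and the other 0.73 ± 0.11 higher (adjusted p = 0.000538). In NOD, H4c6 rose by 0.89 ± 0.20 (adjusted p = 0.00791), H4c4 by 0.71 ± 0.15 (adjusted p = 0.00447) and the 4 shared H4 probe sets by 0.55 to 0.65.

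H1f2 and H2bc4 were lower with the transgene at DN2-3 in both strains. H1f2 read 8.93 and 8.83 log2 in BDC/NOD DN2-3 cells, against 9.75 and 10.32 in NOD DN2-3 cells (-1.16 ± 0.15, adjusted p = 1e-04). In B6g7 it read 8.78 and 8.87 in BDC/B6g7 DN2-3 cells, against 9.86 and 9.72 in B6g7 DN2-3 cells (-0.96 ± 0.15, adjusted p = 0.000439). No BDC array reached a non-Tg array of its strain. H2bc4, an H2B gene of the chromosome 13 cluster, read 7.74 and 7.69 in BDC/NOD DN2-3 cells, against 8.88 and 9.01 in NOD DN2-3 cells (-1.23 ± 0.17, adjusted p = 0.000285). In B6g7 it read 9.16 and 8.82 in BDC/B6g7 DN2-3 cells, against 10.03 and 9.94 in B6g7 DN2-3 cells (-0.99 ± 0.17, adjusted p = 0.00142). H1f3, the linker histone H1.3, fell in NOD by 1.19 ± 0.17 (adjusted p = 0.000265).

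S phase genes were higher in BDC DN2-3 cells, 31 of 37 in NOD and 24 of 37 in B6g7, and mitosis genes in 17 and 14 of 19. Asf1b, an H3-H4 chaperone of dividing cells, was 1.82 ± 0.12 higher in NOD (adjusted p = 3.35e-07) and 1.80 ± 0.12 higher in B6g7 (adjusted p = 2.06e-07). Gamma-delta T cell genes were higher in 6 of 11 in NOD and 8 of 11 in B6g7. Cd79b was lower in both strains (-0.88 ± 0.11 and -0.58 ± 0.11), as was Lyz2, and Nkg7 in NOD (-0.40 ± 0.13); the part of these genes was not tested. The 18 histone calls in NOD became 9 without NOD DN2-3 replicate 1, 7 without BDC/NOD DN2-3 replicate 2 and 3 without the male arrays. The 8 in B6g7 became 4 without B6g7 DN2-3 replicate 2 5 without any 1 of the other 3 arrays compared and 3 without the male arrays.

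Tests of the differences between these differences followed. In B6g7, 34 members had a transgene effect that differed between DN4 and DN2-3, 33 of them more negative at DN4, beside 15.3% of all probe sets called negative and 12.8% positive. H2az1 gave -1.84 ± 0.16 and -1.69 ± 0.15 in its 2 probe sets, and H1f2 gave 2.16 ± 0.21 (adjusted p = 1.67e-06). In NOD 11 members were called, 9 negative and 2 positive, beside 8.35% and 6.11%; H3c15 gave -1.56 ± 0.17 (adjusted p = 2.9e-05) and H1f2 0.88 ± 0.21 (adjusted p = 0.0101). H1f3 was also positive in NOD (0.82 ± 0.24, adjusted p = 0.0307), so the 4 H1 probe sets there were split 2 and 2. The 11 in NOD became 25 without NOD DN2-3 replicate 2, 6 or 7 without any 1 of the other 7 NOD arrays, and 2 without the male arrays, which brought the 34 in B6g7 to 11.

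The transgene effect at DN4 also differed between strains in 13 members, with 12 more positive in NOD, beside 4.00% of all probe sets positive and 4.03% negative (8.03% either way). H1f5 gave 1.21 ± 0.23 (adjusted p = 0.0041) and H2bc18, an H2B gene, 0.94 ± 0.21 (adjusted p = 0.0102), while H1f2 gave -1.49 ± 0.21 (adjusted p = 0.00047). At DN2-3 the 1 call was H1f3 (-1.25 ± 0.24, adjusted p = 0.0315), beside 0.398% of all probe sets called in either direction. The 13 became 28 with either NOD DN2-3 array left out alone, 22 without B6g7 DN4 replicate 2, 6 to 8 without any 1 of the 7 other DN4 arrays, and 0 without the male arrays; the DN2-3 count became 8 without NOD DN2-3 replicate 2.

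Between strains, BDC DN4 cells had the most histone calls, and the share of all probe sets called was also largest there. Of 50 members, 20 were higher in BDC/NOD than in BDC/B6g7 DN4 cells and 3 were lower, beside 12.3% of all probe sets called higher and 7.32% lower (19.6% either way); the member median was 0.31, against -0.01 over all. H1f5 read 11.09 and 11.17 log2 in BDC/NOD DN4 cells, against 9.96 and 10.09 in BDC/B6g7 DN4 cells (1.11 ± 0.16, adjusted p = 0.00013). H1f1 read 10.93 and 11.13 in BDC/NOD DN4 cells, against 9.96 and 10.07 in BDC/B6g7 DN4 cells (1.02 ± 0.13, adjusted p = 3.65e-05). Both linker genes were higher in BDC/NOD without overlap, as was H2az1, whose 2 probe sets gave 1.03 ± 0.11 and 1.00 ± 0.11. All 10 shared H3 probe sets were called higher, by 0.37 to 0.44.

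The 3 lower members were H4c4 (-1.43 ± 0.15, adjusted p = 6.01e-06), H2bc4 (-1.07 ± 0.17, adjusted p = 0.000346) and H1f2 (-0.58 ± 0.15, adjusted p = 0.00936). S phase genes were higher in BDC/NOD in all 37, mitosis genes in all 19, and chaperones in 16 of 20; Slbp differed by 1.05 ± 0.16 (adjusted p = 0.00017). Of the gamma-delta T cell genes, 6 of 11 were lower, with a summed intensity of 20141 to 21261 in BDC/NOD DN4 cells and 29119 to 31396 in BDC/B6g7 DN4 cells. Nkg7 differed by -1.54 ± 0.13, Cd79b by -0.66 ± 0.11, Pdgfrb by -2.27 ± 0.16 and Pecam1 by -0.42 ± 0.13. The NK cell list summed to 1479 to 1514 in BDC/NOD DN4 cells, against 3688 to 3859 in BDC/B6g7 DN4 cells, and the stroma list to 2078 to 2115, against 3293 to 3315; the part of these genes was not tested. The 23 calls became 9 without BDC/B6g7 DN4 replicate 2, 12 and 9 without BDC/NOD DN4 replicates 1 and 2, and 8 without the male arrays.

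In the other 3 strain comparisons the S phase and mitosis lists had 0 to 5 members called in a direction, and the histone calls were mostly of H4 probe sets. Non-Tg DN2-3 cells had 3 members higher and 11 lower in NOD, beside 2.48% and 2.36% of all probe sets (4.84% either way), and non-Tg DN4 cells 4 higher and 9 lower, beside 5.20% and 3.61% (8.81% either way). BDC DN2-3 cells had 1 higher and 8 lower, beside 1.57% and 2.60% (4.17% either way). H4 made up 8 of the 11, 7 of the 9 and 5 of the 8 lower calls. In each of the 3, these included the 4 H4 probe sets that share the same 11 H4c symbols, H4c4 among them. H4c4 was also called by its own probe set, so these calls do not count as independent genes. The member medians were -0.23, -0.24 and -0.06 in these comparisons, against 0.04, -0.06 and 0.03 over all probe sets. Pdgfrb was lower in NOD in all 3 (-2.07, -0.86 and -2.92) and Nkg7 in non-Tg DN4 (-0.86) and BDC DN2-3 cells (-1.01); their part was not tested. A lower transcript level in NOD and a NOD sequence difference under a probe cannot be told apart with these values.

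H4c4, an H4 gene of the chromosome 13 cluster, was lower in NOD in all 4 comparisons. It read 11.36 and 11.79 log2 in NOD DN2-3 cells, against 13.96 and 13.82 in B6g7 DN2-3 cells (-2.31 ± 0.15, adjusted p = 1.58e-07). In DN4 cells it read 12.26 and 12.24 in NOD, against 13.91 and 13.94 in B6g7 (-1.67 ± 0.15, adjusted p = 7.26e-06). In BDC DN2-3 cells it read 12.22 and 12.36 in BDC/NOD, against 14.04 and 13.62 in BDC/B6g7 (-1.54 ± 0.15, adjusted p = 1.37e-05). Every NOD array lay below every B6g7 array of both genotypes. H2bc4 was also lower in all 4, with differences of -1.04 ± 0.17, -1.19 ± 0.17 and -1.27 ± 0.17 in non-Tg DN2-3, non-Tg DN4 and BDC DN2-3 cells. The 4 shared H4 probe sets differed by -1.20 to -1.05 in non-Tg DN2-3 cells and by -0.83 to -0.72 in non-Tg DN4 cells, and none of the 4 was called in BDC DN4 cells.

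H2bc8, H3c4, H4c4 and H2bc4 are neighbours among the single-gene members on chromosome 13, and each was called lower in NOD in at least 1 comparison. H3c4 read 7.15 and 7.24 log2 in NOD DN4 cells, against 8.42 and 8.02 in B6g7 DN4 cells (-1.03 ± 0.18, adjusted p = 0.00304), and differed by -0.80 ± 0.18 in BDC DN2-3 cells (adjusted p = 0.0169). H2bc8 differed by -1.06 ± 0.22 in non-Tg DN2-3 cells (adjusted p = 0.00957). H2ac4 lies farther along the cluster. It was not above background in BDC/NOD DN2-3 cells, at 5.44 and 5.72, against 8.56 and 7.51 in BDC/B6g7 DN2-3 cells, at least 4.15-fold lower (adjusted p = 0.00125). In non-Tg DN2-3 cells it was at least 2.19-fold lower in NOD (adjusted p = 0.000588).

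**Figure D5:**
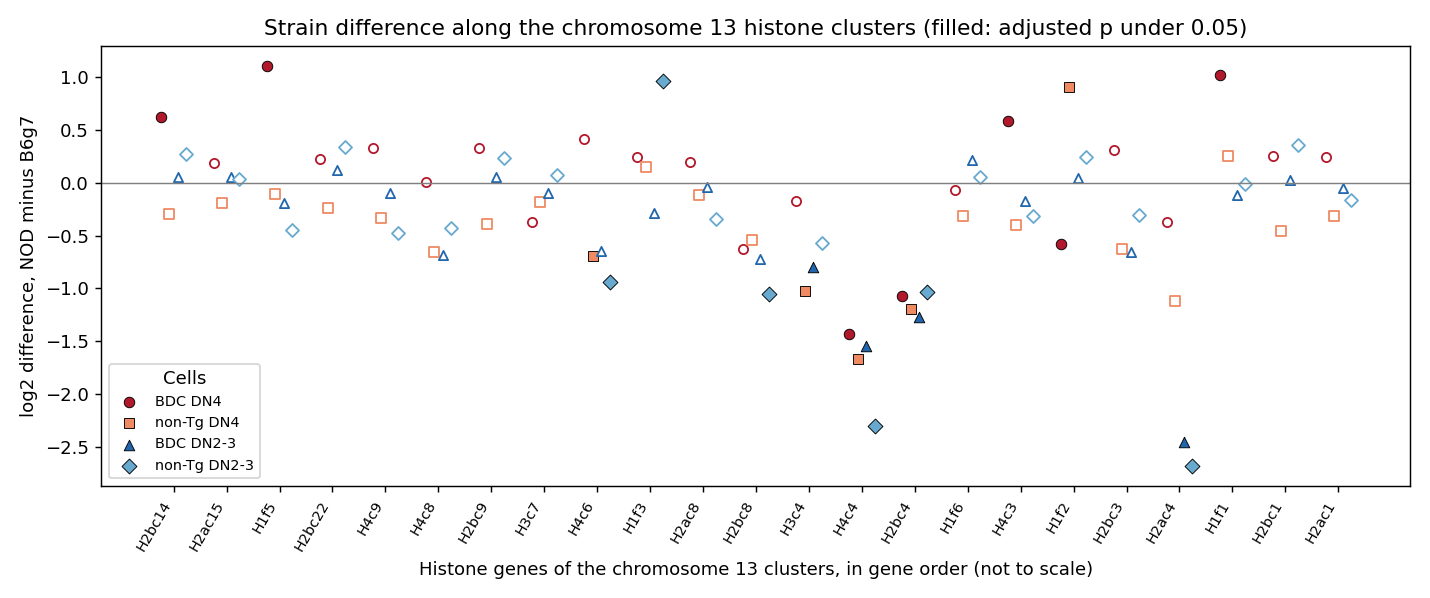
Log2 difference of NOD minus B6g7 for the 23 single-gene histone probe sets of chromosome 13 in gene order, in 4 contexts of stage and genotype. H4c4 and H2bc4 are low in each, H4c4 from -2.31 to -1.43, beside genes with differences near 0.

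A few members were higher in NOD. H3c15, an H3 gene of the chromosome 3 cluster, read 8.33 and 8.35 log2 in NOD DN4 cells, against 6.67 and 6.54 in B6g7 DN4 cells (1.74 ± 0.12, adjusted p = 4.35e-07), and was called higher in all 4 comparisons. H2az2 read 11.41 and 11.48 in NOD DN4 cells, against 10.30 and 10.53 in B6g7 DN4 cells (1.03 ± 0.10, adjusted p = 1.49e-05), and was higher by 0.60 ± 0.10 in non-Tg DN2-3 cells (adjusted p = 0.00147) and by 0.61 ± 0.10 in BDC DN4 cells (adjusted p = 0.000304). H1f10 read 8.86 and 9.24 in NOD DN4 cells, against 7.49 and 7.80 in B6g7 DN4 cells (1.40 ± 0.28, adjusted p = 0.00775). None of these groups overlapped. H1f2 was 0.90 ± 0.15 higher in NOD than B6g7 in non-Tg DN4 cells (adjusted p = 0.00173), in contrast to BDC DN4 cells. H1f3 was 0.97 ± 0.17 higher in non-Tg DN2-3 cells (adjusted p = 0.00273). The 14 calls in non-Tg DN2-3 cells numbered 14 without NOD DN2-3 replicate 1 and 24 without its replicate 2, and the 13 in non-Tg DN4 cells became 5 without B6g7 DN4 replicate 1. The 9 in BDC DN2-3 cells became 4 without BDC/B6g7 DN2-3 replicate 1, 3 without BDC/NOD DN2-3 replicate 1 and 1 without the male arrays.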

How the data were processed

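Total RNA, extracted with Trizol and labelled with biotin, was hybridized to Affymetrix Mouse Gene 1.0 ST arrays, per the labels. The deposited values were intensities on a linear scale (5.82 to 21466), made by the authors with RMA in Affymetrix Power Tools, per the submitters' processing notes; their versions are not given in the sources used here. RMA fits all arrays together and evens out their distributions, so levels are relative. Intensities were put on the log2 scale with no pseudocount. Of 25108 probe sets, 21157 had 1 gene symbol, 1341 several and 2610 none in the probe table; 14 probe sets that mix histone symbols with others were not members. Promoters came from RefSeq (GRCm38.p6) and were matched for 29 of 33 single-symbol genes.

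Groups came from the labels. Differences came from limma (version 3.58.1, under R 4.3.3, with the reader package at version 1.17.8), using lmFit on 8 group means and eBayes (8 residual and 6.61 prior degrees of freedom), two-sided, Benjamini-Hochberg adjusted over 25108 probe sets in each of 12 comparisons and 4 two-way differences. The fit was also run on simulated data in which 200 probe sets were changed in BDC/B6g7 DN4 cells. By stage there, it called 45% of the 1.5-fold and 89% of the 2-fold changes. It also called 14 unchanged probe sets, and 2 changed ones had the wrong sign. In the data, 6411 of 25108 probe sets were called in this comparison. Adjusted p-values depend on how many probe sets change, so the simulated shares are not the recovery in the data. Changes of 1.5-fold or less can go uncalled in such a fit. Where a group was at background, a bound against 5.98 log2 or the probe's own level, whichever was higher on each array, is given as "at least".

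The members and lists were chosen with earlier results of these data known. The text named the 2 brightest probe sets of each class, up to 5 called members each way by size of change in a comparison, up to 4 each way in a two-way difference, and up to 4 called genes of each list; others named were chosen after their values were seen. Lists covered S phase, mitosis, histone mRNA factors, chaperones, other histone variants, thymocyte stage, gamma-delta T cells, B cells, myeloid cells, NK cells, erythroid cells and stroma. In BDC/B6g7 by stage, 0 of 4 erythroid genes were called, with 1 of 8 stroma genes higher and 1 lower, 1 of 7 B cell genes higher, 1 of 12 myeloid genes lower, 1 of 8 NK cell genes higher, 3 of 6 other histone variants lower, and 1 of 13 stage genes higher and 6 lower.

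Alternatives were filters on low signal, 1 probe set a gene, a second quantile normalization, centring on array medians, a replicate block, array weights, a sex term, eBayes with a trend and robust fit, a fit to the compared arrays alone, no male arrays, leaving out each array, and, added after the data were seen, counting the 14 mixed probe sets.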

Additional observations from a re-analysis of the deposited data

Results flagged for a closer look

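These 17 two-way differences, each a test in limma of whether one effect differed between strains or stages, were singled out because their adjusted p was under 0.05 and they were the largest of their comparison. For the transgene effect (BDC minus non-Tg) in NOD minus that in B6g7, DN2-3 cells gave -1.25 for H1f3. DN4 cells gave 1.21 for H1f5, 1.10 for H4c6, 0.99 for H4c3, 0.94 for H2bc18 and -1.49 for H1f2. For the transgene effect in DN4 minus that in DN2-3 cells, B6g7 mice gave 2.16 for H1f2, -2.01 for H2ac4, -1.84 for H2az1 probe set 1, -1.80 for H1f5 and -1.78 for H2bc3. NOD mice gave 0.88 for H1f2, 0.82 for H1f3, -1.56 for H3c15, -1.37 for the probe set of H4c17 and H4c11, -0.91 for H4c6 and -0.86 for H4c3. H2ac4 was not above background in BDC/B6g7 DN4 cells, nor H4c17 with H4c11 in NOD DN2-3 cells, so the sizes of those differences are not well measured. Groups of 2 arrays are too small for a test of single arrays that stand apart.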

How the results depend on the processing

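Of 92 differences named by the rule, none reversed and 38 kept their call under every alternative that could be run on them; 70 could be run with the mean filter, 78 with 1 probe set a gene and 91 with the filter on the highest group. Among counts of histone probe sets called, 1 probe set a gene gave fewer, by construction since 33 members stay: 10 against 16 by stage in NOD, 17 against 32 in BDC/B6g7, 26 against 42 for BDC against non-Tg in B6g7 DN4, 10 against 18 in NOD DN2-3, 9 against 14 for NOD against B6g7 in non-Tg DN2-3, 5 against 9 in BDC DN2-3, 12 against 23 in BDC DN4, and 20 against 34 for the transgene by stage in B6g7. Without male arrays (1 array left in each BDC group) the counts were 6 by stage in NOD, 5 by stage in BDC/B6g7, 3 for the transgene in B6g7 DN2-3 (8 with them), 3 in NOD DN2-3, 1 and 8 for strain in BDC DN2-3 and DN4, 0 and 0 (of 1 and 13) for strain by transgene in DN2-3 and DN4, and 11 and 2 (of 34 and 11) for transgene by stage in B6g7 and NOD. With array weights the counts were 3 by stage in NOD, 9 in BDC/NOD (0 without), 8 and 13 for the transgene in NOD DN2-3 and DN4 (18 and 4), 9 for strain in non-Tg DN2-3, 0 and 28 for strain by transgene in DN2-3 and DN4, and 7 for transgene by stage in NOD. With only the arrays compared they were 2 by stage in NOD, 6 in BDC/NOD, 13, 3 and 11 for the transgene in B6g7 DN2-3, NOD DN2-3 and NOD DN4, 6 for strain in non-Tg DN2-3, and 0 and 20 for strain by transgene in DN2-3 and DN4. A second quantile normalization gave 9 by stage in NOD and 1 in BDC/NOD. The mean filter gave 1 by stage in BDC/NOD, 0 for strain by transgene in DN2-3 and 23 in DN4; the filter on the highest group gave 1 by stage in BDC/NOD and 21 in DN4; centring gave 7, and trended robust eBayes 24, in DN4; sex as a term gave 0 in DN2-3. Causes other than construction were not tested. The share of all probe sets called was not recorded for the alternatives, so a changed count need not be particular to histones.

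Leaving out 1 array gave 5 to 17 calls by stage in B6g7, 6 to 18 in NOD, 24 to 35 in BDC/B6g7 and 0 to 1 in BDC/NOD; for the transgene 4 to 12 in B6g7 DN2-3, 26 to 45 in B6g7 DN4, 7 to 26 in NOD DN2-3 and 1 to 7 in NOD DN4. For strain it gave 10 to 24 in non-Tg DN2-3, 5 to 17 in non-Tg DN4, 3 to 11 in BDC DN2-3 and 9 to 25 in BDC DN4. Two-way differences ranged from 0 to 8 and 6 to 28 for strain by transgene in DN2-3 and DN4, and from 25 to 38 and 6 to 25 for transgene by stage in B6g7 and NOD. Replicate numbers were not taken as pairing the samples, and the labels do not say whether they do. For same-numbered arrays, r ran from -0.20 to 0.43 over 28 pairs of groups, with 9 over 0.1. Between DN4 and DN2-3 cells of the same kind of mice, r was 0.43 in NOD, 0.31 in BDC/B6g7, 0.20 in BDC/NOD and 0.09 in B6g7. Pairing by stage within a kind of mice was not tested. All 6 pairs among the BDC groups were over 0.1 (0.13 to 0.31), where the number also marks the sex. The replicate block fitted a single replicate effect over all groups. With it, 32 members were called by stage in BDC/B6g7 and 42 for the transgene in B6g7 DN4, and no count moved by more than 1.5 times.

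The median of all probe sets for BDC against non-Tg in B6g7 DN4 was -0.12 as deposited, -0.02 after quantile normalization and -0.03 after centring, while the member median was -0.56, -0.51 and -0.47. Member medians kept their sign under both scalings in all 16 comparisons, but quantile normalization made all of them smaller except by stage in NOD (0.19 to 0.20). By stage the median went from -0.53 to -0.39 in BDC/B6g7 and from -0.13 to -0.02 in BDC/NOD. For the transgene in B6g7 DN2-3 it went from 0.13 to 0.02. Adding the 14 mixed probe sets gave 54 calls for BDC against non-Tg in B6g7 DN4 and 38 by stage in BDC/B6g7. Signals near background or near the top of the scale limit the differences that can be measured.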

Other observations

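Probe sets that mix histone symbols with those of other genes, and so were not members, gave further values. The 4 probe sets of H3f3a and the 2 of H3f3b, which encode the replacement histone H3.3, did not read alike in BDC/B6g7 DN4 cells set against B6g7 DN4 cells. All 4 for H3f3a were called lower, with differences of -0.47 to -0.35, and neither for H3f3b was called (-0.17 and -0.03, adjusted p = 0.27 and 0.849); the difference between the genes was not tested. In the same comparison all 6 mixed H2B probe sets were called lower, at -0.73 to -0.56, and both mixed H2A probe sets, at -0.48 and -0.46. By stage in BDC/B6g7, both mixed H2A and 3 of 6 mixed H2B probe sets were lower. Between strains, both mixed H2A probe sets were higher in BDC/NOD than in BDC/B6g7 DN4 cells, by 0.49 and 0.52, and none of the 14 was called in the other 3 strain comparisons.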
